A study of Mus musculus with 5 samples.

Results

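Forkhead (Fox) genes were followed over 5 single-colour microarrays of a mouse heart differentiation course, with and without knockdown of the long non-coding RNA Linc1405. The members were all genes whose symbol begins with Fox, a letter from a to s and a digit, leaving out Foxa1, Foxa2, Foxf1 and Foxc2, and the brightest probe stood for each gene. The rule gave 39 of the 17742 named genes, measured by 42 of 26423 probes: 37 protein-coding factors and 2 antisense transcripts, Foxd2os and Foxl2os. Each of 5 groups held 1 array of total RNA. Undifferentiated embryonic stem cells (ESCs) of the mouse line 46C at day 0 carried the control genotype and grew on feeder cells, later removed, in 15% fetal bovine serum with leukaemia inhibitory factor (LIF) at 1000 U/ml. At day 4 the labels speak of mesoderm cells: control and Linc1405 knockdown cultures grew without serum in N2 and B27 with Bmp4 at 0.2 ng/ml, Activin A at 5 ng/ml and VEGF at 5 ng/ml. The cultures of both lines at day 10, labelled cardiomyocytes, grew in StemCell Pro-34 medium with bFGF at 10 ng/ml, VEGF at 5 ng/ml and FGF10 at 25 ng/ml. The labels name the knockdown samples MES_1405KIpA and CM_1405KIpA, without explaining that name or saying whether the line is 1 clone. There was no knockdown array at day 0.

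Forkhead factors bind DNA through a shared winged-helix domain, and many recognise variants of one short core sequence. Some are switched on in a single lineage, such as Foxh1, the Smad partner in Nodal signalling, or Foxc1, a factor of mesenchyme, somites and vessels. Others are present in most cells and are controlled by phosphorylation, such as the FoxO factors, which AKT keeps out of the nucleus, or follow the cell cycle, such as Foxm1. In the heart, Foxp1 and Foxc1 are known for roles in growth and outflow tract development.

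Intensities were quantile normalized, set to a floor of 100 (6.64 on the log2 scale) and converted to log2 values. All levels below are log2 intensities and all differences are log2 differences between 2 arrays. A gene counted as higher or lower when its brighter array reached the median gene value (10.04) and the arrays differed at least 2-fold. Because every group is a single array, the spread between cultures was not measured and nothing was tested. As a guide to probe error only, the between-probe SD of a difference, from genes with 2 probes, was 0.189 for knockdown against control at day 4, 0.259 at day 10, 0.571 for control day 4 against ESCs and 0.709 for control day 10 against day 4. Levels of different genes were not compared, because each probe has its own response. A symbol holding Linc1405 stood on 0 probes, so the knockdown itself was not checked.

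Marker genes followed the labels for the most part. At least 2-fold lower at day 4 than in ESCs were 6 of 6 measured pluripotency markers, and 7 of 7 streak mesoderm markers were higher. Of all genes past the filter, 13.6% were lower and 12.8% higher. Esrrb, Tcl1 and Zfp42 passed only through their ESC array, and all streak markers but T only through their day 4 array. At day 10, 8 of 8 measured heart muscle markers were higher than at day 4, beside 19.3% of all genes. So were 5 of 6 fibroblast, 6 of 6 liver-type endoderm, 5 of 5 endothelium and 5 of 6 epicardium markers. Of these, only Actc1, Actn2, Ttn, Rbp4, Ttr, Cdh5, Pecam1, Tek and Tie1 also reached the filter at day 4. Shares resting on genes that passed through 1 array are not read as results about the lists. Between the lines at day 10, knockdown was lower for 6 of 8 heart muscle markers, with Tnnt2 higher, and for 5 of 6 liver-type markers. It was higher for 6 of 6 epicardium markers (summed level 15.45 in control, 17.23 in knockdown). In that pair 3.55% of all genes past the filter were lower and 2.43% higher. Apob passed there only through its control array, and Aldh1a2 only through its knockdown array. The summed level of neural markers was 14.92 in control and 15.81 in knockdown, which rested on Ncam1 (difference 0.93). The median difference over the 5 measured neural markers was 0.016, and 0 of them were 2-fold higher. At day 4, 2 of 3 measured blood markers were higher in knockdown cells (summed level 12.70 in control, 13.75 in knockdown) and 1 of 7 streak markers, Mixl1, was lower, with a median of -0.92 over the 7. Of all genes past the filter there, 0.664% were higher and 1.11% lower. These are whole cultures, so fewer cells of a type and less RNA per cell cannot be told apart.

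Over the control course, Foxk1, Foxn3, Foxj2 and Foxh1 were at least 2-fold higher at day 4 than in ESCs, and Foxn4 was lower. Among the 16 members past the intensity filter in that pair these were 4 higher and 1 lower, beside 12.8% of all genes past the filter higher and 13.6% lower. Foxn4 passed only through its ESC array, so the share that was lower is not read as a result about the members. Between day 4 and day 10 in control cells, Foxc1, Foxs1 and Foxp1 were higher, and Foxh1, Foxo6, Foxm1, Foxk2, Foxf2 and Foxn2 were lower. That made 3 higher and 6 lower among 17 members past the filter, beside 19.3% of all genes higher and 19.8% lower. Foxc1 and Foxs1 passed the filter there only through their day 10 array, and Foxo6 only through its day 4 array. These shares are therefore not read as a result about the members. The median difference over all 39 members was 0.17 from ESCs to day 4 and -0.41 from day 4 to day 10, where the median of all genes was 0 in both.

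Knockdown against control gave few differences of this size. Foxq1, a factor of epithelia, was lower in knockdown cells on both days, and on each day it passed the filter only through its control array. At day 4 it was 1 lower and 0 higher among 14 members past the filter, beside 1.11% of all genes lower and 0.664% higher (1.77% in either direction). At day 10 Foxq1 was lower and Foxo6, a FoxO factor, was higher among 16 members past the filter, beside 3.55% of all genes lower and 2.43% higher (5.98% in either direction). Foxo6 passed the filter there only through its knockdown array. The median difference over the 39 members was 0 on both days. In all, 18 members passed the filter in at least 1 of the 4 comparisons, and 14 of these were at least 2-fold apart in at least 1. Of all genes past the filter, 39.1% were 2-fold apart between the control days alone, so 14 of 18 is not read as a trait of the members. The other 21 never reached the filter, of which Foxd4 lay at the floor on all 5 arrays with both of its probes.

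**Figure D1:**
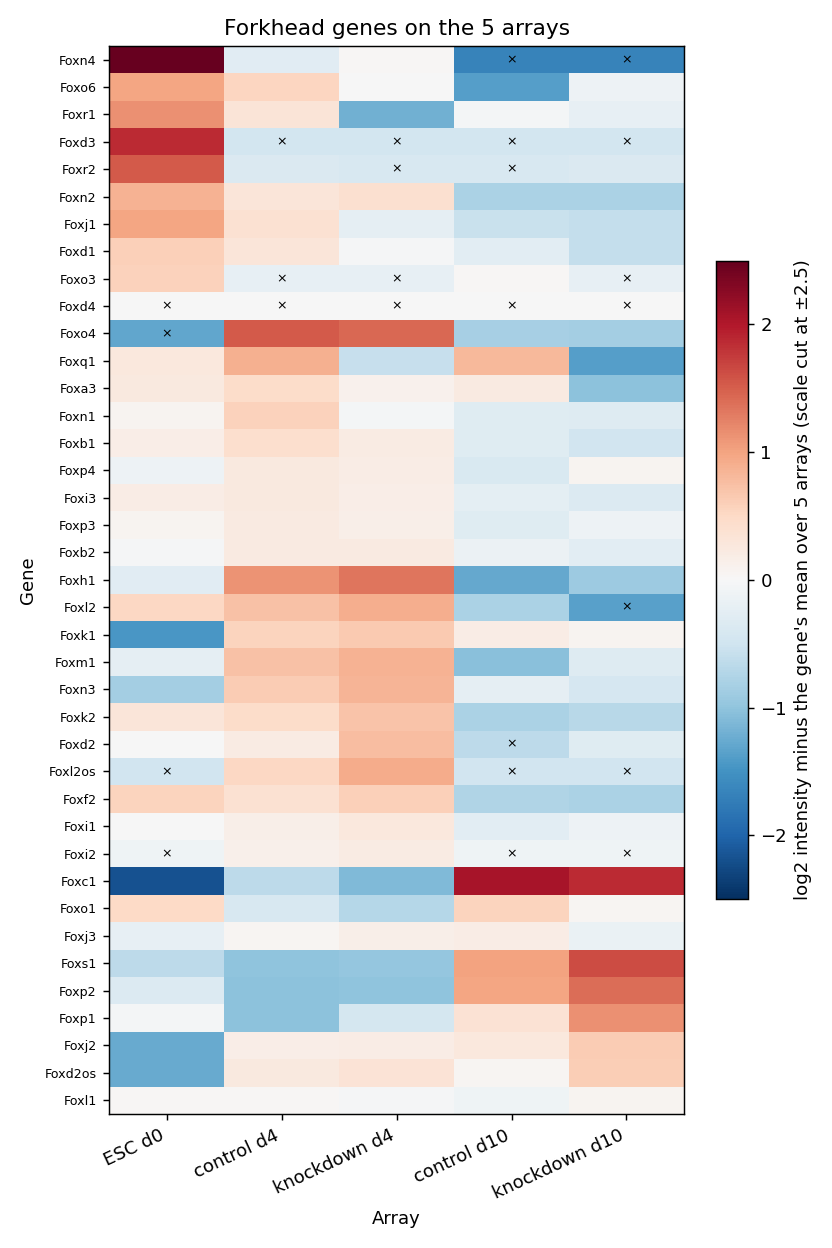
Log2 intensity of each of the 39 forkhead genes minus that gene's mean over the 5 arrays, with genes in rows ordered by the array on which they were brightest, arrays in columns and crosses where an array lay at the floor. Foxn4 and Foxd3 are brightest in ESCs, Foxh1 and Foxm1 at day 4, and Foxc1, Foxs1 and Foxp1 at day 10.

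Foxq1 lies next to Foxf2 and Foxc1 on chromosome 13, with 0 protein-coding genes between neighbours in the gene table of the assembly GRCm38.p6. It acts in hair and in the mucous cells of the stomach. Its level was 9.76 in ESCs, 10.38 (control) and 8.91 (knockdown) at day 4, and 10.31 (control) and 8.12 (knockdown) at day 10. Both knockdown arrays thus lay below all 3 control arrays, ESCs included. The difference was -1.47 at day 4 (2.76-fold lower), rank 50 from the lowest of 9042 genes, and -2.19 at day 10 (4.57-fold lower), rank 39 from the lowest of 9264. Across other normalizations, floors and probe choice it ranged from -1.47 to -1.24 at day 4 and from -2.54 to -2.08 at day 10. Where the arrays were not quantile normalized, its brighter day 10 array (9.72) fell under the filter (10.02), so it was not counted there. Its neighbours did not show such differences: Foxc1 differed by -0.45 at day 4 and -0.19 at day 10, and Foxf2 by 0.23 and -0.06, although the Foxc1 pair at day 4 lay below the filter.

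As a sum, liver-type endoderm markers were lower in knockdown cells on both days, as Foxq1 was. Single markers differed: Alb went the other way on both days (0.07 and 0.08), and Rbp4 at day 4 (0.06). Only Rbp4 and Ttr passed the filter at day 4, and 5 of the 6 markers were at least 2-fold lower at day 10. The summed level of the list was 12.96 (control) and 12.30 (knockdown) at day 4, and 17.40 and 14.64 at day 10, and its part in the Foxq1 difference was not tested. Foxq1 differed by -0.07 between the control days. Foxa3, a factor of liver and gut endoderm, stood at 9.79 in ESCs, 9.99 and 9.65 in control and knockdown cells at day 4, and 9.76 and 8.50 at day 10. The knockdown array at day 10 was the lowest of the 5, with a difference of -1.26 from its control, but neither array of the pair reached the filter. The remaining epithelial members, Foxi1, Foxi2, Foxi3 and Foxn1, the thymus epithelium factor, stayed below the filter throughout. Their knockdown differences ran from -0.62 (Foxn1, day 4) to 0.13 (Foxi1, day 10).

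**Figure D2:**
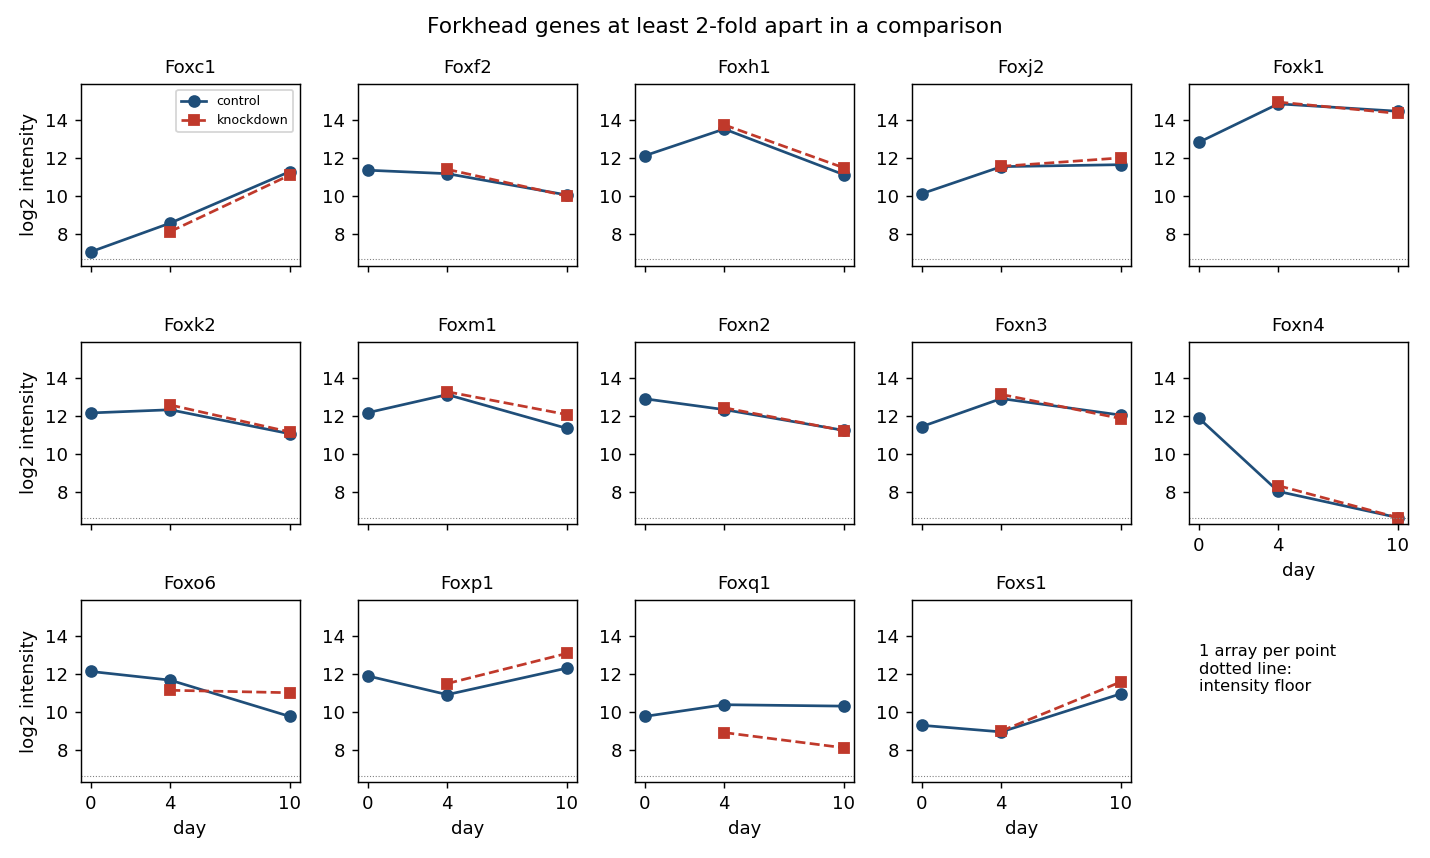
Log2 intensity against day for the 14 forkhead genes at least 2-fold apart in at least 1 comparison, with control arrays as circles (ESCs at day 0), knockdown arrays as squares, 1 array per point and the floor dotted. Foxq1 at 8.91 and 8.12 in knockdown lies apart from its control line on both days, while the Foxo6 lines cross between day 4 and day 10.

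The FoxO factors restrain growth and switch on stress and atrophy genes when insulin signalling is low. Foxo6, best known from the brain, was at 12.13 in ESCs, 11.67 and 11.14 in control and knockdown cells at day 4, and 9.77 and 11.01 at day 10. The control array at day 10 was the low one, while the knockdown line stayed almost level. Control cells differed by -1.91 between the days (3.75-fold lower) and knockdown cells by -0.13. Knockdown minus control was therefore -0.53 at day 4 and 1.25 at day 10 (2.37-fold higher, rank 148 from the highest of 9264), a change of 1.78 between the days that could not be tested. Epicardium markers were also higher in knockdown cells at day 10, by 1.78 in summed level. The neural sum differed by 0.89 through Ncam1 (0.93), with a median of 0.016 over the 5 measured neural markers. The part of either list in the Foxo6 difference was not tested. Foxo1, a main target of AKT, was at 10.71, 9.81, 9.49, 10.75 and 10.26 in the same order of arrays, lowest in both day 4 cultures. Its knockdown difference of -0.49 at day 10 was under 2 between-probe SDs. Foxo4 stayed below the filter but followed the stage: it lay at the floor in ESCs, at 9.49 and 9.39 at day 4 and at 7.13 and 7.11 at day 10. It was thus at least 2.84 higher at day 4 than in ESCs, with differences of -0.10 and -0.02 between the lines. Foxo3 lay at or close to the floor on every array, with 7.41 in ESCs as its highest level.

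Genes around the FoxO factors were taken from lists chosen with earlier results of these data known. Of 20 measured genes upstream of FoxO, such as insulin receptor substrates and kinases, 19 passed the filter between ESCs and control day 4. At day 4, 5 of these were at least 2-fold higher and 2 lower, beside 12.8% and 13.6% of all genes, with Irs2 (2.36), Irs1 (2.02), Pik3r1 (1.62) and Sgk3 (1.33) the highest. From day 4 to day 10 the growth factor receptor gene Igf1r was higher (2.60), and Sgk3 (-2.86), Stk4 (-2.11), Usp7 (-1.89) and Sirt1 (-1.36) were lower. These 4 of 19 past the filter were close to the 19.8% of all genes that were lower. Between the lines 0 of the 20 differed 2-fold on either day. Of 30 measured genes reported as FoxO targets, 23 passed the filter between ESCs and control day 4, with 2 higher and 9 lower at day 4, beside 12.8% and 13.6% of all genes. Between the control days 25 passed, with 12 higher and 0 lower at day 10, beside 19.3% and 19.8%. Of the 9 lower at day 4, Bcl6, Bnip3, Pdk4 and Trim63 passed only through their ESC array. Of the 12 higher at day 10, Bnip3, Cdkn1b, Igfbp1, Pdk4 and Trim63 passed only through their day 10 array. Neither share is therefore read as a result about the list. The medians over all 30 were -0.19 and 0.74. At day 10 the knockdown array was at least 2-fold lower for 6 of 25 past the filter and higher for 0, beside 3.55% and 2.43% of all genes, with a list median of -0.32 beside 0 for all genes. The 6 were Igfbp1 (-3.32), a liver-secreted binding protein, Bnip3 (-1.69), a hypoxia and mitophagy gene, Cdkn1a (-1.52), a cell cycle inhibitor, the muscle ubiquitin ligase genes Trim63 (-1.47) and Fbxo32 (-1.09), and Pdk4 (-1.19). Igfbp1 and Pdk4 passed the filter in that pair only through their control array. Heart muscle markers (summed level 18.74 in control, 17.75 in knockdown) and liver-type markers were also lower there, and their part in these differences was not tested. At day 4 the target list had 0 genes 2-fold apart and a median of 0.02.

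Foxp1, a factor of heart growth and lymphoid cells, was at 11.90 in ESCs, 10.91 (control) and 11.49 (knockdown) at day 4, and 12.31 and 13.08 at day 10. It was lowest in the day 4 cultures, highest at day 10, and higher in knockdown than in control cells on both days. Control day 10 exceeded control day 4 by 1.39 (2.63-fold), a value of 0.71 without normalization between arrays, where the median of all genes shifted by -0.72. Knockdown minus control was 0.58 at day 4 and 0.77 at day 10, both over 2 between-probe SDs and under 2-fold. Epicardium markers differed in the same direction at day 10 (by 1.78 in summed level) and by -0.04 at day 4, blood markers differed by 1.05 at day 4, and their part in the Foxp1 differences was not tested. Foxp2, known from the brain, stayed below the filter, at 7.50, 6.81, 6.83, 8.82 and 9.24, again highest in the day 10 cultures, and differed by 2.01 between control day 10 and day 4. Foxp4 (10.25 to 10.87) and Foxp3 (9.39 to 9.91), the regulatory T cell factor, varied little over the 5 arrays. Between the lines Foxp4 differed by 0.44 at day 10.

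The promoters are shown for Foxp1 because it was the member whose start sites all held the forkhead core, and for Foxn3 because it alone held the T-box core that Eomes-type factors read. They were picked after the matches were seen. Windows of 300 bases, 250 before and 50 after a start, were taken from RefSeq on GRCm38.p6, where 26 of the 39 members matched with 29 windows. The forkhead core TGTTTA, on either strand, was in 4 of the 29 windows (Foxp1 at its 3 starts, and Foxp3) and in 13.4% of all 32851. The T-box core AGGTGT, on either strand, was in 1 of 29 and in 13.7% of all. Capitals mark these matches, which do not overlap, and each sequence is written 5′ to 3′ on the gene's strand.
Foxp1, chr6:99520944-99521243, minus strand: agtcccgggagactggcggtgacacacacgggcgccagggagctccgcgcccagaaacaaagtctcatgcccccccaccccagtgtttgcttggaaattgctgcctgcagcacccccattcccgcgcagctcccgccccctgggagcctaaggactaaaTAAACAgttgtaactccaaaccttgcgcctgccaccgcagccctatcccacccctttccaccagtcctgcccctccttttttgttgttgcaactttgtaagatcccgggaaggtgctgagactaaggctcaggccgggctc
Foxp1, chr6:99266466-99266765, minus strand: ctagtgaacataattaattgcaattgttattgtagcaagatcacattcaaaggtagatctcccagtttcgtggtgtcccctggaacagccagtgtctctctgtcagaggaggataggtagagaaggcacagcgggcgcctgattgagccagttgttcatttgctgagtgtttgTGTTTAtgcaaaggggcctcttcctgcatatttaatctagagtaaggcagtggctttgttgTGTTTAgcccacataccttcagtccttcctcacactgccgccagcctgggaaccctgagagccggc
Foxp1, chr6:99028249-99028548, minus strand: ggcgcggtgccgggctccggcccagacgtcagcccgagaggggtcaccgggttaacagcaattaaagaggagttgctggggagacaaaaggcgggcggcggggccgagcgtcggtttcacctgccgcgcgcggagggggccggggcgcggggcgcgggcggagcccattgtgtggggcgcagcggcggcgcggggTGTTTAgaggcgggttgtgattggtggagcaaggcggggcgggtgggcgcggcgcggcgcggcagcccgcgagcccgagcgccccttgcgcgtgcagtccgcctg
Foxn3, chr12:99450025-99450324, minus strand: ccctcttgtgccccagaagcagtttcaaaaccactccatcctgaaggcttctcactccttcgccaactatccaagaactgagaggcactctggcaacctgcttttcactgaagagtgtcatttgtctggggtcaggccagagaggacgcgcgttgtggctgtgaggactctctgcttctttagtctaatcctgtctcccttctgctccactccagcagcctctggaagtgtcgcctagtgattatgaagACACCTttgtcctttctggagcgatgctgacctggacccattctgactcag
The array does not tell which Foxp1 start was used, and a match is only a run of letters, not a bound site. Member windows had a median GC content of 65.3% and a median of 22 CpG dinucleotides, against 52.7% and 7 for all windows. The Foxn3 window, with 52.7% GC and 6 CpG, was close to the general median.

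Foxh1, which brings Smad proteins to Nodal and Activin target genes, was at 12.10 in ESCs, 13.51 and 13.73 in control and knockdown cells at day 4, and 11.11 and 11.47 at day 10. Both day 4 cultures, grown with Activin A, were the high ones and both day 10 cultures the low ones. Control cells differed by 1.41 from ESCs to day 4 (2.65-fold higher) and by -2.40 from day 4 to day 10 (5.28-fold lower). The lines differed by 0.22 and 0.36 on the 2 days. Of 18 measured genes of the Nodal pathway and its Smad and Foxh1 targets, which all passed the filter in both comparisons, 8 were higher and 2 lower at day 4 than in ESCs, beside 12.8% and 13.6% of all genes. At day 10, 1 was higher and 7 lower than at day 4, beside 19.3% and 19.8%. Of the 8 higher at day 4, only Smad3 also reached the filter in ESCs. Of the 7 lower at day 10, Cer1, Fgf8, Lhx1 and Mixl1 reached it only at day 4. Neither share is therefore read as a result about the list. Cfc1, a Nodal coreceptor, differed by 6.35 and then -4.88, and the streak factors Mixl1 by 4.0 and -4.71 and Lhx1 by 3.13 and -3.99. In knockdown cells at day 4, 3 of the 18 were lower, beside 1.11% of all genes, namely the coreceptor Tdgf1 (-3.48), Mixl1 (-1.26) and Lhx1 (-1.11), with a list median of -0.20. Tdgf1 passed the filter in that pair only through its control array. Streak mesoderm markers, a list that also holds Mixl1, had a summed level of 16.78 in control and 16.09 in knockdown cultures there, and their part in these differences was not tested. At day 10 Cfc1 (-2.27) and Tdgf1 (-1.40) were lower, 2 of 13 past the filter, and 0 were higher, beside 3.55% and 2.43% of all genes. Both passed the filter in that pair only through their control array, so this share is not read as a result about the list.

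Foxd3, a factor of the early epiblast and neural crest, was measured above the floor only in ESCs, at 8.96. All 4 differentiated cultures lay at the floor, so the decrease was at least 2.32, from a level below the filter. Foxn4, which acts in retina and spinal cord, was at 11.89 in ESCs, 8.02 and 8.33 in control and knockdown cells at day 4, and at the floor in both day 10 cultures. The ESC array was far above the others, with a difference of -3.87 at day 4 (14.6-fold lower), rank 159 from the lowest of 9682 genes. Foxn4 passed the filter in that pair only through its ESC array. Foxr2 (8.57 in ESCs, 6.68 or below elsewhere) was also brightest in ESCs. Foxr1 was at 9.56 in ESCs, 8.73 (control) and 7.21 (knockdown) at day 4, and 8.36 and 8.21 at day 10. The knockdown array at day 4 was its lowest, with a difference of -1.52, but no array of Foxr1 reached the filter. Fibroblast or feeder markers as a sum were also higher in ESCs (15.07) than in control day 4 cells (10.84). Among them Col1a1 was higher at day 4 by 0.55, and Col3a1 lay at the floor on both arrays. Col1a2, Dcn and Postn passed the filter only through their ESC array. The feeders' part in the ESC levels was not tested.

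Foxm1 drives genes of mitosis together with the MuvB complex. It was at 12.16 in ESCs, 13.12 and 13.27 in control and knockdown cells at day 4, and 11.34 and 12.07 at day 10, with the day 10 control the lowest. In control cells it differed by -1.77 from day 4 to day 10 (3.42-fold lower). Knockdown exceeded control by 0.15 at day 4 and by 0.72 at day 10, and the second value was over 2 between-probe SDs but under 2-fold. Of 25 measured mitotic targets 22 passed the filter between the control days. At day 10, 5 of these were at least 2-fold lower and 0 higher, beside 19.8% and 19.3% of all genes, so the share that was lower was near that of all genes. They included Tpx2 (-1.55), Mki67 (-1.52), Bub1 (-1.20) and Nek2 (-1.11), and the list median was -0.58. These targets did not share the knockdown difference of Foxm1 at day 10: 0 were 2-fold apart and the list median was -0.0014. Mki67 differed by 0.47 and Tpx2 by 0.33 there. The part of the epicardium markers and of the neural marker Ncam1, higher in the same knockdown array, was not tested. Ncam1 differed by 0.93 there, where the median over the 5 measured neural markers was 0.016.

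**Figure D3:**
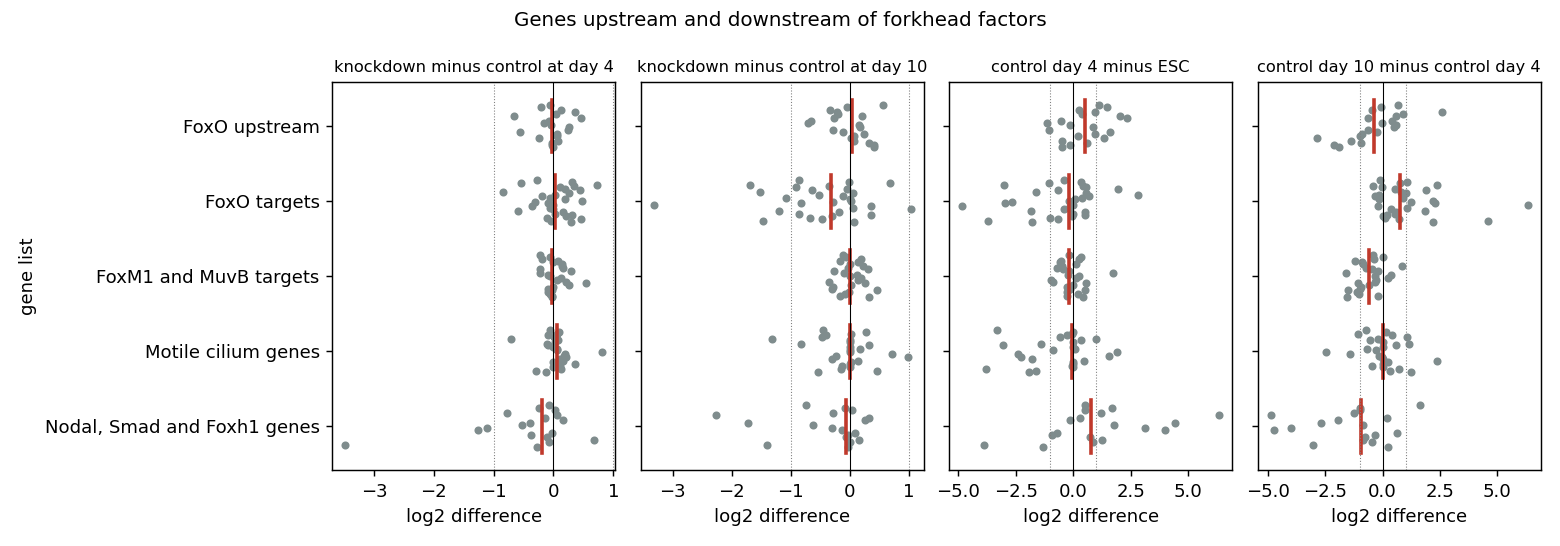
Log2 differences of single genes (grey points) in 5 lists around forkhead factors, with the list median as a red bar and dotted lines at 2-fold, in a panel for each of the 4 comparisons whose horizontal scales differ. FoxO targets lean to lower values in knockdown cells at day 10 (median -0.32) and to higher values at control day 10 (0.74), while FoxM1 and MuvB targets are centred near 0 in both knockdown panels.

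Foxk1 and Foxk2 are broadly expressed paralogs tied to glycolysis and autophagy, and Foxk1 is also known from muscle progenitors. Foxk1 was at 12.81 in ESCs, 14.84 and 14.93 in control and knockdown cells at day 4, and 14.45 and 14.33 at day 10. All 4 differentiated cultures lay above ESCs, by 2.03 for control day 4 (4.08-fold higher). Foxk2 behaved differently, at 12.15 in ESCs, 12.32 and 12.57 at day 4 and 11.06 and 11.15 at day 10, so that only the day 10 cultures were low. Its control difference from day 4 to day 10 was -1.26 (2.40-fold lower), where Foxk1 differed by -0.39. Between the lines the largest difference of either gene was 0.254 (Foxk2, day 4).

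Foxj2, a widely expressed member, was at 10.10 in ESCs, 11.53 and 11.55 at day 4 and 11.63 and 11.99 at day 10, again with ESCs below all other cultures. Its difference between control day 4 and ESCs was 1.43 (2.69-fold higher). Foxj3 was the steadiest member past the filter, between 12.62 and 13.01 on all 5 arrays. Foxj1, the master factor of motile cilia, stayed below the filter and was brightest in ESCs, at 8.46, with 7.85 and 7.24 at day 4 and 6.91 and 6.86 at day 10.

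Foxn2 and Foxn3 are related factors, the latter first described as a checkpoint suppressor. Foxn3 was at 11.43 in ESCs, 12.91 and 13.13 in control and knockdown cells at day 4, and 12.04 and 11.86 at day 10, highest in the day 4 cultures. Its difference from ESCs to control day 4 was 1.48 (2.78-fold higher). Foxn2 was at 12.90, 12.33, 12.42, 11.24 and 11.22 in the same order, highest in ESCs and lowest at day 10. From control day 4 to day 10 it differed by -1.09 (2.13-fold lower), which became -0.90 and under 2-fold with loess centring. Between the lines the differences of Foxn2 and Foxn3 were at most 0.22 in size.

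Foxc1 was the member with the largest change among those past the filter between control day 4 and day 10. It passed the filter in that pair only through its day 10 array. It was at 7.04 in ESCs, 8.56 and 8.11 in control and knockdown cells at day 4, and 11.27 and 11.08 at day 10. In control cells each stage lay above the one before it, and the day 10 array of the knockdown line lay above its day 4 array. The difference between the control days was 2.71 (6.53-fold higher, rank 513 from the highest of 9842 genes), and 2.97 in the knockdown line. Foxf2, a factor of gut mesenchyme and pericytes and the gene next to Foxc1, went the other way, at 11.34 in ESCs, 11.16 and 11.39 at day 4 and 10.04 and 9.99 at day 10. Both day 10 cultures were low, with a control difference of -1.12 (2.17-fold lower) that was -0.92 with loess centring.

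Foxs1, known from pericytes and smooth muscle, was at 9.30 in ESCs, 8.95 and 9.0 at day 4, and 10.95 and 11.58 in control and knockdown cells at day 10. Only the day 10 cultures were high, by 2.0 in control cells (4.01-fold) and by 2.59 in the knockdown line. Knockdown exceeded control by 0.63 at day 10, over 2 between-probe SDs and under 2-fold. Fibroblast markers (summed level 10.84 at control day 4, 17.73 at control day 10) and endothelium markers (12.69 and 15.57) were higher at day 10 together with Foxc1 and Foxs1, and their part in these differences was not tested. Between the lines at day 10 those summed levels differed by 0.07 and 0.02, and that of the epicardium markers by 1.78, whose part in the Foxs1 difference was not tested. The other mesenchymal members were dim: Foxl1, a gut mesenchyme factor, stayed between 8.0 and 8.16, Foxd1, a kidney stroma factor, between 7.60 and 8.78, and Foxd2 and the ovary factor Foxl2 never passed 8.91. Foxd2os was at 6.78 in ESCs and between 8.09 and 8.64 elsewhere, and Foxl2os lay at the floor except at day 4 (7.64 and 8.05). Its second probe instead was above the floor only in ESCs (7.08). The second probe of Foxl2 lay at the floor on all 5 arrays. The forebrain members Foxb1 (9.35 to 10.24) and Foxb2 (8.88 to 9.36) varied by less than 2-fold over all 5 arrays.

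The 2 knockdown comparisons share no array, so their differences can be set side by side. Of 13 members past the filter on both days, 6 had the same sign on both, beside 4219 of 8190 genes. Pearson r over these 13 genes was 0.63, and -0.37 over 12 without Foxq1, so the value rests on that gene. Genes of one array share its hybridisation, and r is given as a description. Past the filter, 3 of 14 members at day 4 and 5 of 16 at day 10 differed by more than 2 between-probe SDs, beside 10.9% and 18.6% of all genes. Foxp1 and Foxq1 were the members past the filter and beyond 2 between-probe SDs in the same direction on both days, and Foxo6 was beyond it in opposite directions. Small differences at day 10 depend on scaling: Foxc1, Foxf2, Foxj3, Foxk1, Foxn2 and Foxn3 changed sign without normalization between arrays, where the median of all genes shifted by 0.37 (Foxf2, Foxk1 and Foxn2 also after centring), as did Foxp4 at day 4, whereas Foxq1, Foxo6, Foxp1, Foxm1 and Foxs1 kept theirs under all 6 alternatives of normalization, floor and probe choice.

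**Figure D4:**
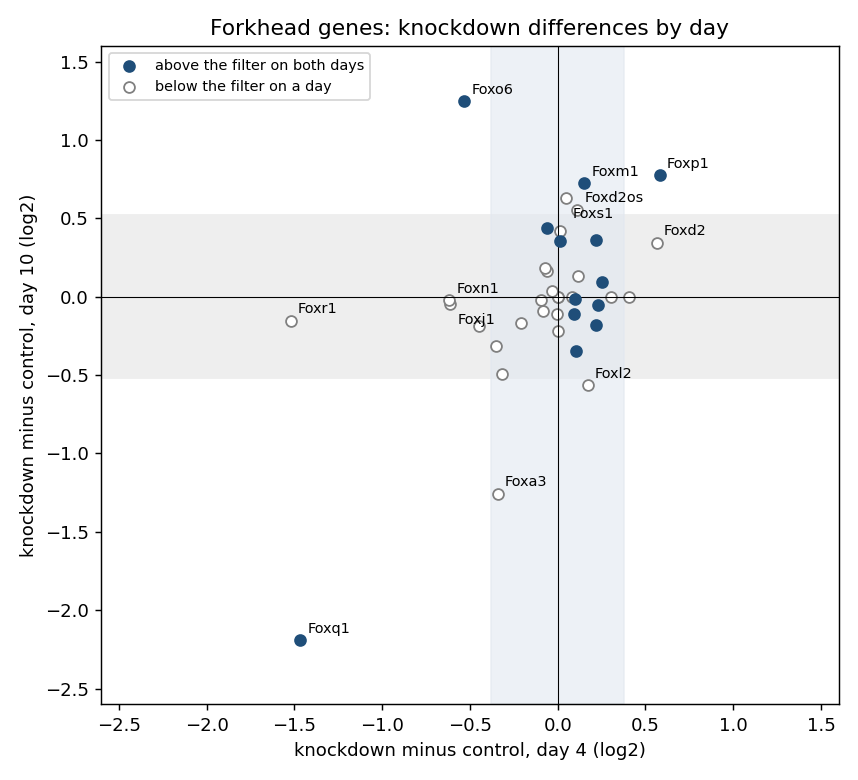
Knockdown minus control at day 10 against that at day 4 for the 39 forkhead genes, on log2 scales, with filled points for genes past the filter on both days and shaded bands of 2 between-probe SDs on each axis. Foxq1 lies far from the others at -1.47 and -2.19, and Foxo6 at -0.53 and 1.25.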

How the data were processed

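RNA of 5 samples, 1 per group, was hybridised to single-colour arrays after labelling with Cy5, per the labels' protocols. The deposited table holds linear probe intensities, extracted with Agilent Feature Extraction 10.7.1.1 per the submitters' processing notes. Whether the authors normalized these intensities is not known from the labels. Array medians ran from 344 to 745, so the deposited intensities were quantile normalized over the 5 arrays, set to a floor of 100 (19.0 to 19.1% of the probes of an array) and put on the log2 scale. Detection and saturation marks were not used. Probe symbols came from the platform annotation: 20377 probes had 1 symbol, 0 several and 6046 none. They were updated through a GRCm38.p6 gene table (18213 current, 2126 through a synonym, 38 kept). Foxd2os was named through a synonym. The brightest probe stood for a gene, and the intensity filter was the 50th percentile of gene values. Between-probe SDs are SDs of the difference between the probes of genes with 2 probes past the filter, divided by the square root of 2. Genes were named with all values when past the filter and at least 2-fold apart in a comparison. Alternatives were no normalization, the same centred on the median of all genes, loess centring (span 0.3, 3 iterations), floors of 50 and 200, the mean of all probes, a 75th percentile filter, no filter and a 4-fold threshold. A filter at the median of all probes was added after the data were seen. The calculation (Python 3.11.15, pandas 2.3.3, statsmodels 0.14.6) was tested on simulated data. Members and lists were chosen with earlier results of these data known. The number of arrays limits the precision.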

Additional observations from a re-analysis of the deposited data

Results flagged for a closer look

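Foxo6 went in opposite directions in the knockdown comparisons of the 2 days. Knockdown minus control was -0.53 at day 4 and 1.25 at day 10 on the log2 scale, each over 2 between-probe SDs of its day. With 1 array per group, the difference between the days was not tested. Its control level fell by 1.91 between the days, and the deposited intensities behind the day 10 pair were 554 in control and 2052 in knockdown cells.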

How the results depend on the processing

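No paired analysis was possible because each group holds 1 array, so the groups share only 1 replicate number, and no replicate could be left out. Over the 14 genes named with all values, the 4 comparisons and the 6 alternatives of normalization, floor and probe choice, 298 of 336 values moved by less than the between-probe SD and 38 by more, and 0 of the differences counted as 2-fold changed sign. As deposited, members at least 2-fold apart at day 10 between the lines were 4 higher and 0 lower, with a median of 0.28, and from control day 4 to day 10 there were 12 lower, with a median of -1.34. The medians of all genes then shifted by 0.37 and -0.72. Member counts under the alternatives are given without the share of all genes under the same setting, so they show only the dependence on processing. Centring on the median and loess centring each gave 0 lower at day 10 between the lines, since the Foxq1 pair missed the filter, and loess gave 2 lower at day 4 against ESCs. Without a filter, knockdown had 2 lower on each day, and control day 4 had 7 higher and 3 lower than ESCs. With a filter at the 75th percentile knockdown had 0 lower at day 4 and 0 higher and 0 lower at day 10, control day 4 had 0 lower, and control day 10 had 0 higher and 2 lower. At 4-fold, knockdown had 0 lower at day 4 and 0 higher at day 10, control day 4 had 1 higher and control day 10 had 1 lower. A filter at the median of all probes, added after the data were seen, gave 2 lower in knockdown at day 10. Both stricter settings count fewer genes by construction. Dim members near the floor are measured only as bounds.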

Other observations

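Among genes of motile cilia, the programme that Foxj1 controls, differences between control day 4 and ESCs ran both ways. The median over all 26 measured genes was -0.05 on the log2 scale, and 5 of them lay at the floor on both arrays. The sperm and cilium gene Tekt1 (-3.79), Capsl (-3.33), the dynein gene Dnaic2 (-3.03) and the factor Rfx2 (-2.39) were lower at day 4, each past the filter only through its ESC array. Rsph1 (-2.25) and Tppp3 (-1.90) were lower with both arrays past the filter. Past the filter 8 of 12 were lower and 1 higher, beside 13.6% and 12.8% of all genes. Because of the genes that passed only through ESCs, that share is not read as a result about the list. The factor Rfx3 was higher by 1.54. Below the filter, Pifo differed by 1.90, Dnah11 by 1.0 and Rsph4a by -1.81, and Foxj1 itself by -0.61. Between the lines 0 of the 26 were 2-fold apart past the filter on either day.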
